A study of Mus musculus with 7 samples.

Results

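A set of 10 genes of the striated muscle contractile apparatus, which earlier results of these data had shown to be high in adult mouse esophagus, was followed across all 7 arrays of the series. The members were Tnnc2, Tnni2, Tnnt3, Mylpf, Myh8, Acta1, Tcap, Ckm, Actn2 and Ttn, taken as every probe whose accession mapped to a symbol of the set. All 10 had a probe, among 17043 named genes, and together they held 19 probes: 8 for Ttn, 2 each for Tnnt3 and Myh8, and 1 for each of the others. Since the members were selected on their esophagus level relative to the other adult organs, every comparison with esophagus below is a description and not a test.

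Each array carried total RNA of 1 sample, and no group held more than 1 sample. Adult esophagus, lung, stomach and intestine were taken fresh from ICR mice, an outbred strain, and a stomach primordium came from ICR embryos of embryonic day 9.5 (E9.5). Age beyond "adult", sex, the number of animals and any pooling are not given in the labels. Stomach-type tissue grown from mouse embryonic stem (ES) cells was taken at culture day 42, after growth with EGF (50 ng/mL), FGF10 (100 ng/mL), R-spondin1 (250 ng/mL), Wnt3a and Noggin. A further sample was taken at day 46, after 4 days with Shh (100 ng/mL) and Bmp4 (10 ng/mL). The labels do not say which of the first factors were withdrawn, and they name neither the ES cell line nor its strain. Both cultures shared the EGF-containing base medium, as far as the treatment label states it.

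With 1 array per group there was no replicate spread, so no test or error is given and precision is limited by the number of arrays. A level is the log2 signal minus the 75th percentile of its array, so 0 is that percentile and 1 unit stands for 2-fold. A level belongs to its probe and is compared only with the same gene on other arrays. Repeat spots of a probe varied with a median standard deviation of 0.07 to 0.10, and different probes of the same gene gave log2 differences between arrays with a standard deviation between 0.47 and 0.89. The 4 adult organs were on a common slide, while E9.5 stomach and the 2 cultures had separate slides, so that for those 3 samples slide and sample cannot be told apart. Between 78.4% and 90.6% of the genes were well above background per array. The labelled organs carried their markers: 11 of 12 squamous epithelium markers were above background in esophagus (Krt5 at 7.94), 6 of 6 lung markers in lung, 8 of 8 stomach markers in adult stomach and 7 of 7 intestine markers in intestine. The squamous markers did not set esophagus apart from adult stomach, where 12 of 12 were above background, with Krt5 at 6.31 and a log2 of the summed level of 10.41 beside 10.38 in esophagus. All 6 lung markers were also above background in esophagus, with Sftpc at 5.12 there, 9.71 in lung and -0.74 in stomach.

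Striated muscle contracts when calcium binds the troponin complex on the thin actin filament, which lets the heads of the myosin filament pull on it. Fast-twitch skeletal fibres use their own versions of the troponin subunits and myosin chains, while the heart and slow-twitch fibres share others. In the mouse, unlike the human, the outer muscle coat of the esophagus is striated along nearly its whole length, whereas stomach, intestine and the airway walls are coated with smooth muscle. Of the members, Tnnc2, Tnni2, Tnnt3 and Mylpf encode fast-fibre subunits, and Myh8 encodes the perinatal skeletal myosin heavy chain. Acta1, Tcap, Ckm, Actn2 and Ttn are used by heart muscle too, so the word "fast" applies to only part of the set.

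The sequence before the start site was available for 7 of the 10 members in the RefSeq promoter table of build GRCm38.p6. Tnni2, Tnnt3 and Tcap had no entry. Those of Tnnc2, Myh8, Acta1 and Ttn are shown because these genes shared the esophagus peak and because, between them, they hold every kind of motif searched. Each is the 250 bases before the annotated start, 5′ to 3′ on the gene's own strand, with matches to the E-box CANNTG in capitals; the E-box is the recognition sequence of the MyoD family of muscle regulators. Tnnc2 lies at chr2:164779735-164779984 on the minus strand, Myh8 at chr11:67276874-67277123 on the plus strand, Acta1 at chr8:123894776-123895025 on the minus strand and Ttn at chr2:76982548-76982797 on the minus strand.
Tnnc2: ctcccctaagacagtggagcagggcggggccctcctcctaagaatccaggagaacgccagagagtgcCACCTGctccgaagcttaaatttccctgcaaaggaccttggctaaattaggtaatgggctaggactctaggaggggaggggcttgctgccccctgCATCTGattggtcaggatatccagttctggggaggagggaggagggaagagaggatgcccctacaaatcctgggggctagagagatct
Myh8: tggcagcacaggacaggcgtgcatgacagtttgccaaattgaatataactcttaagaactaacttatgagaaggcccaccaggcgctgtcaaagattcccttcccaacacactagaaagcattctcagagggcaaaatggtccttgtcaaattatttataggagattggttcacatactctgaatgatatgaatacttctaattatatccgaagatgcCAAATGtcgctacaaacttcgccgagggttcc
Acta1: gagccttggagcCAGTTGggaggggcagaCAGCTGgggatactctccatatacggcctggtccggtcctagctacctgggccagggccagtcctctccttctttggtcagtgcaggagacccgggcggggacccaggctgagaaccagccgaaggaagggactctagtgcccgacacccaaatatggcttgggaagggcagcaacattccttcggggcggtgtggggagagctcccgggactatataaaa
Ttn: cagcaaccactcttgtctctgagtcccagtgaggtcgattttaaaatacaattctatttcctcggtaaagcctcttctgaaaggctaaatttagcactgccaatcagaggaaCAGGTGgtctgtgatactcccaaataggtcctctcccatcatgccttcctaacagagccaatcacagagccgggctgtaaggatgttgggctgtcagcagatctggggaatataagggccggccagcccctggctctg

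An E-box was present in 7 of the 7 member promoters, with 11 matches in all, and in 66.2% of 32851 promoters of the same length in the table. At least 2 were present in 3 of the 7, Tnnc2, Acta1 and Actn2, against 31.8% of all promoters. Both strands were searched, and the E-box reads as a match on either. The TATA box TATAAA matched in Myh8 (96 bases before the start) and in Acta1 (7 bases before the start), against 12.4% of all promoters. The MEF2 site, bound by the MEF2 factors that act with the MyoD family, matched in Myh8 (99 bases before the start) and in Ttn (166 bases before the start), against 2.92% of all promoters. In Myh8 the TATA box match lies within the MEF2 match. The CArG box, bound by serum response factor, matched in Acta1 alone (73 bases before the start), against 1.47%. A match describes these letters only; whether any factor was bound was not measured.

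In esophagus all 10 members and all 19 probes were well above background, and each member had its highest level there. Outside esophagus the members were still measurable: all 10 were above background in lung, stomach, intestine and both cultures, and 9 in E9.5 stomach, where Ckm was not. Over the 14086 genes compared on every array, 82 (0.582%) were at least 16-fold higher in esophagus than on each of the other 6 arrays, and the 10 members were among them by the choice that made the list. The members' median level was 8.63 in esophagus, 0.06 in lung, -1.73 in intestine, -1.53 in stomach, -1.34 in E9.5 stomach, -0.22 in the day 42 culture and -0.08 in the day 46 culture. In whole-tissue RNA, fewer muscle cells and less RNA per muscle cell cannot be told apart. The array that came closest to esophagus differed from gene to gene: the day 42 culture for Tnnt3, Myh8 and Actn2, E9.5 stomach for Tnnc2 and Mylpf, intestine for Acta1 and Ckm, and lung, stomach and the day 46 culture for Tcap, Tnni2 and Ttn in that order.

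**Figure D1:**
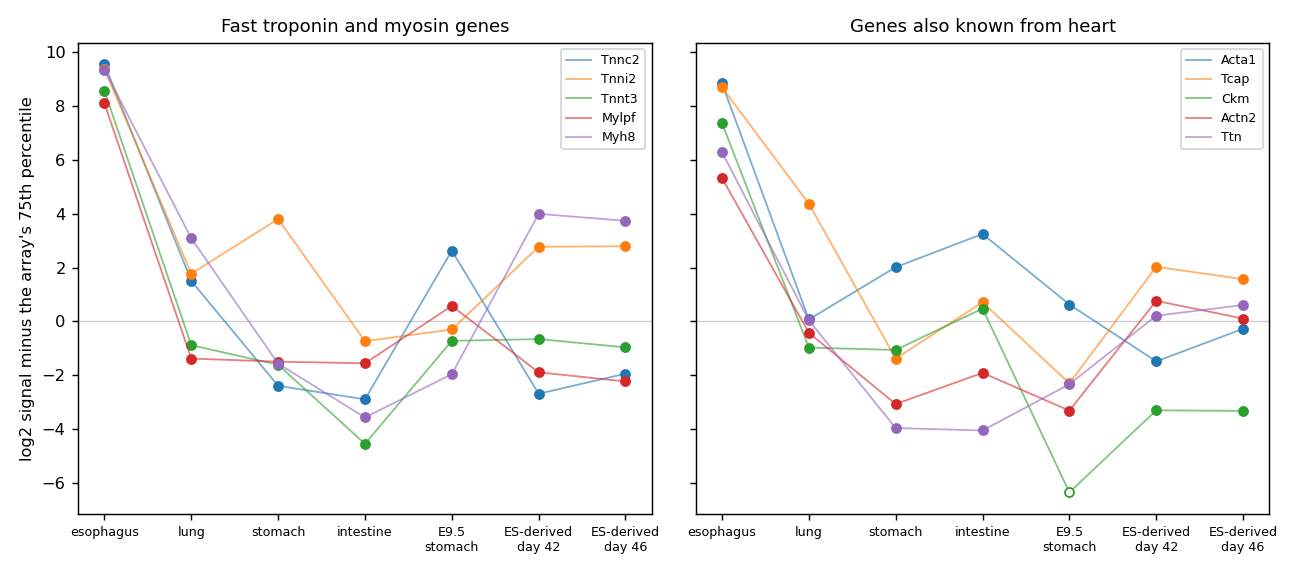
Level of each member on each of the 7 arrays (vertical axis, log2 signal minus the array's 75th percentile; horizontal axis, array; 1 point per array, left panel the fast troponin and myosin genes, right panel the genes also used by heart; the open point is not well above background; lines only join the points of a gene). All 10 genes peak in esophagus, between 5.33 and 9.57, and their order over the other arrays differs from gene to gene.

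The 3 troponin subunits of fast fibres were the calcium sensor Tnnc2, the inhibitory subunit Tnni2 and the tropomyosin-binding subunit Tnnt3. The level of Tnnc2 was 9.57 in esophagus, 1.51 in lung, -2.89 in intestine, -2.39 in stomach, 2.63 in E9.5 stomach, -2.69 at day 42 and -1.94 at day 46. The nearest array, E9.5 stomach, was 122-fold lower than esophagus. Adult stomach, intestine and both cultures formed the low end for this gene, and lung and E9.5 stomach lay well above them.

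Tnni2 differed from Tnnc2 in the array that came next. Its level was 9.38 in esophagus, 3.81 in stomach, 2.79 at day 46, 2.78 at day 42, 1.77 in lung, -0.30 in E9.5 stomach and -0.73 in intestine. Stomach was 47.5-fold below esophagus and yet above the other 5 arrays. Tnni3, the heart paralogue of this subunit and a heart marker, was at 5.20 in adult stomach and -2.64 in esophagus, so the stomach array was high for both inhibitory subunits. Whether signal of Tnni3 contributed to the Tnni2 probe was not tested. The 2 cultures could not be separated for Tnni2, their difference of 0.02 being far below the standard deviation between probes.

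Tnnt3 was read by 2 probes. The brighter gave 8.57 in esophagus, -0.88 in lung, -4.55 in intestine, -1.61 in stomach, -0.72 in E9.5 stomach, -0.66 at day 42 and -0.96 at day 46. The other gave 7.08, -1.76, -4.52, -3.04, -1.28, -1.23 and -1.36 in the same order. On both probes esophagus stood far above the rest, intestine was lowest, and lung, E9.5 stomach and the 2 cultures lay close together. The nearest array was 597-fold lower by the first probe and 316-fold lower by the second. Tnni2 and Tnnt3 are near neighbours in the genome, with only Lsp1 between them, but their levels ran differently: stomach came next to esophagus for Tnni2 and lay above intestine alone for Tnnt3.

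Mylpf, the regulatory light chain of fast myosin, had a level of 8.11 in esophagus, -1.38 in lung, -1.55 in intestine, -1.50 in stomach, 0.58 in E9.5 stomach, -1.89 at day 42 and -2.23 at day 46. E9.5 stomach was next, 185-fold lower, as it was for Tnnc2. The 3 other adult organs were nearly equal for this gene.

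Myh8, the perinatal myosin heavy chain, had a level of 9.36 in esophagus, 3.09 in lung, -3.57 in intestine, -1.57 in stomach, -1.96 in E9.5 stomach, 4.00 at day 42 and 3.74 at day 46 on its brighter probe, which put day 42 41.0-fold below esophagus. Its second probe gave 3.55 in esophagus and was not well above background on any of the other 6 arrays. The probes therefore shared the esophagus peak and differed over lung and the cultures: for esophagus over day 42 the first gave 5.36 (log2) and the second at least 9.12. Myh8 lies in a cluster of closely related myosin heavy chain genes, after Myh2, Myh1 and Myh4 and before Myh13, so signal from its relatives cannot be separated here. Other myosins were high in lung and the cultures as well: Myh4 was at 1.39 in lung, 2.59 at day 42 and 2.08 at day 46, Myh6, the alpha myosin of heart, at 3.17, 4.57 and 3.40, and Myh7, shared by heart and slow fibres, at 4.34, 6.98 and 5.06. Their part in the Myh8 values was not tested.

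**Figure D2:**
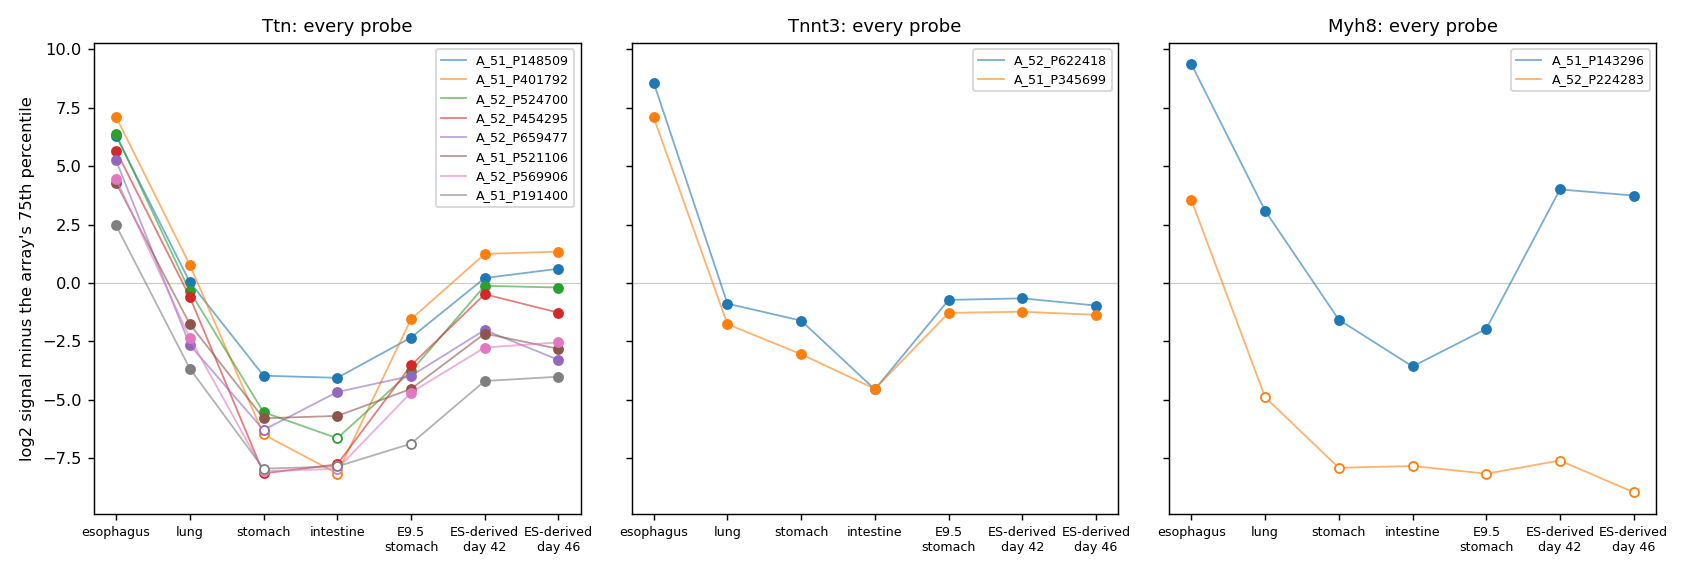
Every probe of the 3 members with more than 1 probe (vertical axis, log2 signal minus the array's 75th percentile; horizontal axis, array; 1 line per probe, open points not well above background). All probes peak in esophagus. The 2 Tnnt3 probes keep a similar distance from esophagus to lung and to the cultures. The Ttn probes spread more, from 5.68 to 8.53 (log2) against day 46. The second Myh8 probe, unlike the first, is not well above background in lung or in either ES-derived culture.

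Acta1 encodes the skeletal actin of the thin filament. Its level was 8.85 in esophagus, 0.07 in lung, 3.25 in intestine, 2.02 in stomach, 0.63 in E9.5 stomach, -1.48 at day 42 and -0.27 at day 46. Intestine and stomach, the adult organs rich in smooth muscle, came next to esophagus, and intestine was 48.3-fold below esophagus. The smooth muscle actin genes Acta2 and Actg2, which are close relatives of Acta1, were at 8.08 and 6.39 in intestine and at 7.80 and 6.34 in stomach, above their esophagus levels of 6.77 and 5.51. Their part in the Acta1 signal of intestine and stomach was not tested.

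Actn2, the alpha-actinin that crosslinks actin at the Z disc, had a level of 5.33 in esophagus, -0.42 in lung, -1.91 in intestine, -3.07 in stomach, -3.31 in E9.5 stomach, 0.77 at day 42 and 0.11 at day 46. Tcap, the small cap protein that binds the end of titin at the Z disc, was at 8.70 in esophagus, 4.38 in lung, 0.71 in intestine, -1.38 in stomach, -2.30 in E9.5 stomach, 2.03 at day 42 and 1.57 at day 46. These were the members with the smallest gap to the next array, 23.7-fold for Actn2 (day 42) and 20.1-fold for Tcap (lung).

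Ttn encodes titin, the giant spring protein that spans from Z disc to M band. The probe standing for it gave 6.29 in esophagus, 0.04 in lung, -4.05 in intestine, -3.96 in stomach, -2.33 in E9.5 stomach, 0.21 at day 42 and 0.61 at day 46. All 8 Ttn probes were highest in esophagus. Their log2 difference from lung ran from 6.03 to 7.89, from day 42 from 5.86 to 7.25 and from day 46 from 5.68 to 8.53, so the distance to each of these arrays exceeded the spread among probes. In stomach and in intestine only 3 of the 8 probes were above background, and differences over the remainder are bounds.

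Ckm, the muscle creatine kinase that buffers ATP, had a level of 7.37 in esophagus, -0.97 in lung, 0.48 in intestine, -1.06 in stomach, -3.30 at day 42 and -3.32 at day 46, and its E9.5 signal was not well above background. Intestine was next, 119-fold below esophagus. Against E9.5 stomach esophagus was at least 13542-fold higher. Ckm is used by heart, but unlike Ttn, Tcap and Actn2 it was lower in both cultures than in adult stomach.

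Set against single arrays, esophagus was at least 4-fold higher for 10 of 10 members every time. Over all genes the same held for 7.73% against lung, 5.31% against stomach, 9.37% against intestine, 17.3% against E9.5 stomach, 10.7% against day 42 and 10.2% against day 46. These comparisons share the esophagus array. The members' median difference was 7.83 against lung, ranging from 4.33 (Tcap) to 9.49 (Mylpf), while the median over all genes was 0.03. Against stomach it was 9.85, from 5.57 (Tnni2) to 11.96 (Tnnc2), and against intestine 9.89, from 5.59 (Acta1) to 13.12 (Tnnt3), with medians over all genes of -0.07 and 0.01. Lung was the nearest of the 3 other adult organs for 7 members (Tnnc2, Tnnt3, Mylpf, Myh8, Tcap, Actn2 and Ttn), stomach for Tnni2, and intestine for Acta1 and Ckm.

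The heart markers behaved differently on the lung array. All 13 were above background in lung. In esophagus 11 of 12 were, since Nkx2-5 had no value there. The log2 of the markers' summed level was 6.40 in lung and 3.45 in esophagus. Of the 12 compared, 8 were at least 4-fold lower in esophagus, against 7.83% of all genes (median -2.39), while none was 4-fold higher. Myl7, the atrial light chain, was at 5.47 in lung and 0.77 in esophagus, and Myh6 at 3.17 and 2.30. In esophagus the heart markers Nppa, Tnni3 and Mybpc3 were at -2.89, -2.64 and -3.31, against 4.75, 3.89 and 4.25 at day 42. Tbx20 was not well above background in esophagus, while Tnnt2 was at 1.61 there and 5.59 at day 42. Tnni3 was not particular to the culture, since it was at 5.20 in adult stomach. The 5 members shared with heart had a median difference of 6.25 between esophagus and lung, and the 5 that heart does not use 8.06. This order was not particular to lung. The medians were 7.24 and 12.46 against intestine, and 8.43 and 10.17 against stomach. The part of heart-type transcripts in the lung level of Tcap, Actn2 and Ttn was not tested.

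**Figure D3:**
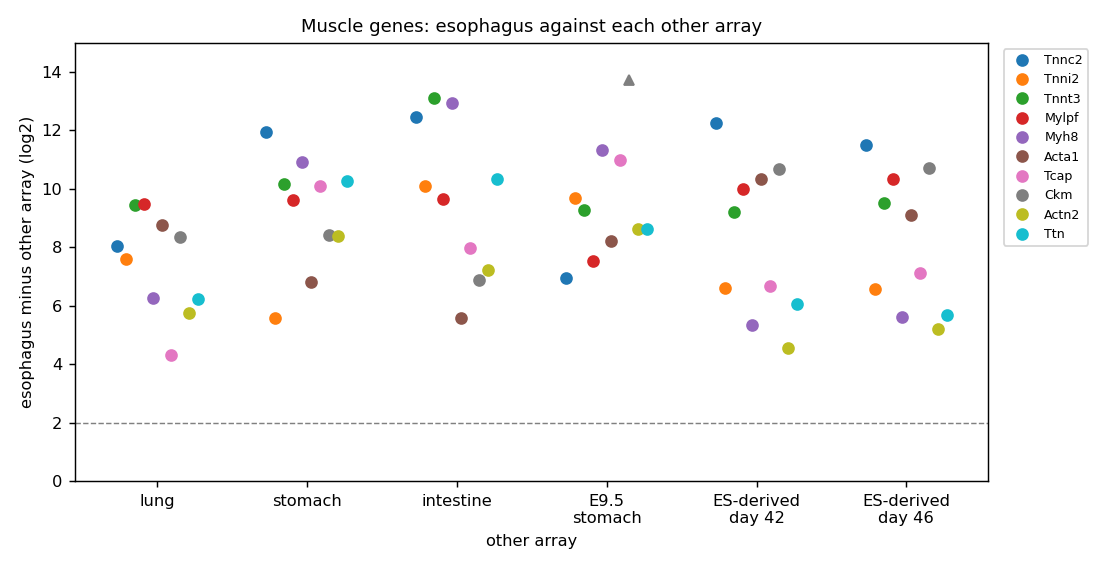
Log2 difference of each member between esophagus and each of the other 6 arrays (vertical axis; horizontal axis, the other array; 1 point per gene; the triangle is a lower bound, since Ckm was not well above background in E9.5 stomach; the dashed line marks 4-fold). All points lie above the line, and the smallest difference is 4.33, for Tcap against lung.

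Against E9.5 stomach the members' median difference was 8.97, from 6.94 (Tnnc2) to at least 13.73 (Ckm), and the median over all genes was -0.06. Against the cultures it was 7.95 at day 42, from 4.56 (Actn2) to 12.25 (Tnnc2), and 8.13 at day 46, from 5.22 (Actn2) to 11.51 (Tnnc2), with medians over all genes of -0.09 and -0.07. The split by use in heart, present against lung, intestine and stomach, was not plain against E9.5 stomach. There Tnnc2 (6.94) and Mylpf (7.53), which heart does not use, had the smallest differences, and Ckm, shared with heart, the largest. The medians there were 9.29 for members not of heart and 8.64 for the shared ones, with a standard deviation between probes of 0.65. At day 42 the members that heart does not use had a median difference of 9.22 and the shared ones 6.67. The split was not clean, since Myh8 (5.36) and Tnni2 (6.60) lay at the low end and Ckm (10.68) and Acta1 (10.33) at the high end. With each array centred on its median in place of the 75th percentile, the median over all genes moved to -0.73 against E9.5 stomach and -0.65 against day 42, and the share of 4-fold calls that were higher in esophagus moved from 60.7% to 38.5% and from 55.5% to 34.1%; the count of members stayed 10 of 10.

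Other muscle genes were taken from lists that, like the members, were drawn up with earlier results of these data known. The other fast fibre genes followed the members: 11 of 11 were at least 4-fold higher in esophagus than in adult stomach (median 8.66) and than in E9.5 stomach (median 8.88), 9 of 10 than in lung (median 7.17), and 10 of 11 than at day 42 (median 7.86). Myl1, the fast essential light chain, was at 8.65 in esophagus and between -3.18 and 0.51 elsewhere. Myh2, the fast oxidative myosin, was at 7.51 in esophagus, -0.90 in stomach, -4.21 in intestine, -5.70 in E9.5 stomach and -4.53 at day 46, was not well above background at day 42, and had no value in lung. Actn3, the fast-fibre alpha-actinin, was the exception at day 42, with -1.44 in esophagus and -1.25 in the culture.

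Genes of slow fibres were high in esophagus as well. Against adult stomach 10 of 11 were at least 4-fold higher (median 7.38), among them the slow and ventricular light chain Myl3, at 8.55 in esophagus and -5.36 in stomach, and Myh7, at 5.93 and 0.20. The exception, Tpm3, a tropomyosin that non-muscle cells use too, was at 4.69 in esophagus and between 4.39 and 6.63 elsewhere. Against day 42 only 5 of 11 slow genes were 4-fold higher (median 1.51), and Myh7 and Tnnc1 were higher in the culture, at 6.98 and 2.24, than in esophagus, at 5.93 and 1.07.

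Most genes of the wider apparatus of a skeletal fibre were high in esophagus with the members. Against adult stomach, 20 of 22 genes of the Z disc and M band (median 5.67), 11 of 14 of excitation-contraction coupling (median 7.34), 13 of 15 of muscle energy metabolism (median 6.91) and 6 of 10 of the neuromuscular junction (median 2.27) were at least 4-fold higher. Among them were Cacna1s, the voltage sensor of skeletal muscle, at 5.79 in esophagus and -3.24 in stomach, the oxygen store Mb at 8.08 and -5.58, and the acetylcholine receptor subunit Chrna1 at 2.33, with stomach not well above background. Chrne, another subunit of that receptor, went the other way, at -0.52 in esophagus and 2.06 in stomach. Against E9.5 stomach the corresponding counts were 21 of 22, 13 of 14, 15 of 15 and 6 of 10, and against day 42 they were 20 of 22, 13 of 14, 15 of 15 and 7 of 10. Of the 5 listed developmental and extraocular isoforms, 3 had a measured probe. Among these only Actc1 peaked in esophagus, by a smaller gap than any member. Myl4, the embryonic and atrial essential light chain, was at 1.93 in esophagus and higher in lung (3.67), at day 42 (4.08) and at day 46 (3.40). Actc1, the cardiac actin, was at 6.55 in esophagus, 5.26 in intestine, 4.87 in stomach, 4.06 in lung, 2.85 in E9.5 stomach, 3.51 at day 42 and 3.11 at day 46, and Myh13 was not well above background on any array.

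Smooth muscle markers did not share the pattern. All 10 were above background on every array, and none was 4-fold higher or lower between esophagus and adult stomach (median -0.92); the log2 of their summed level was 8.85 in esophagus, 10.06 in stomach and 10.18 in intestine. They were 4-fold higher in esophagus for 7 of 10 against E9.5 stomach (median 3.61) and for 7 of 10 against day 42 (median 2.58). Heart markers were 4-fold higher in esophagus for 3 of 11 and lower for 2 of 11 against stomach, where 5.31% of all genes were higher and 6.31% lower. Their median there was 0.25, and its sign turned under normexp background correction and with the mean over a gene's probes.

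**Figure D4:**
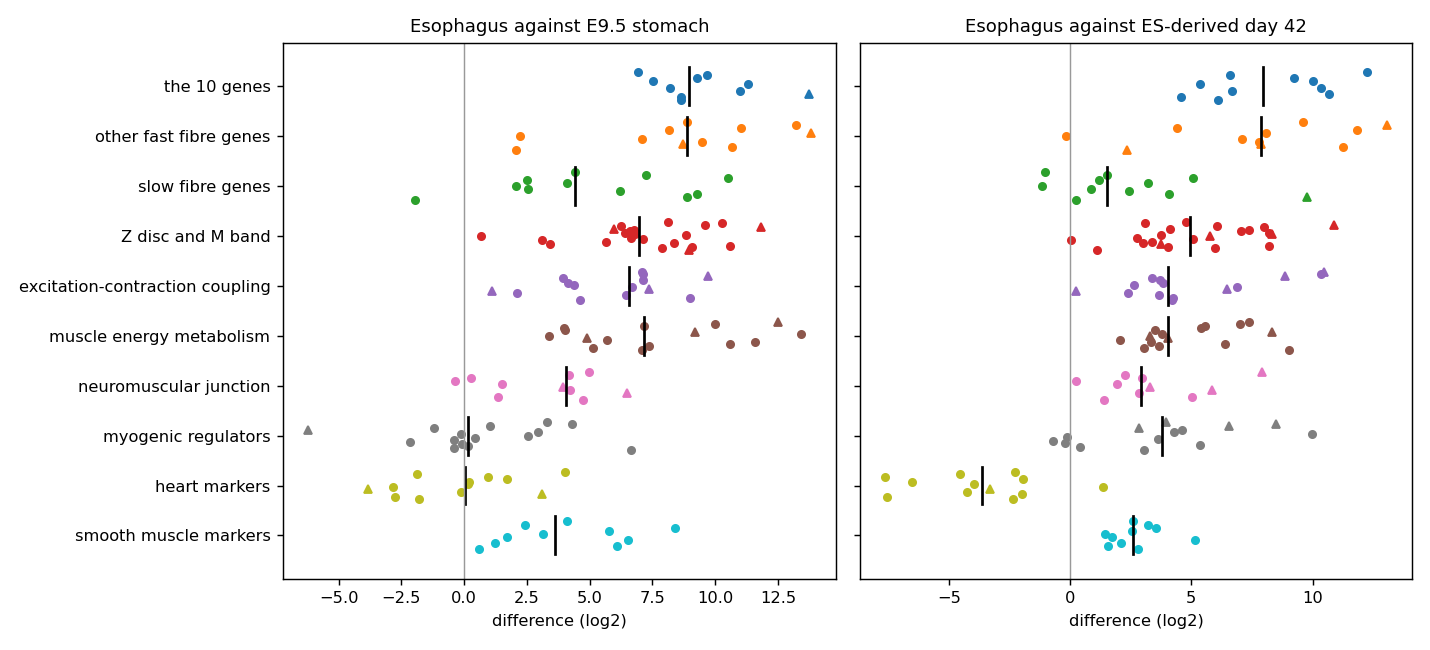
Log2 difference between esophagus and E9.5 stomach (left) and between esophagus and the day 42 culture (right) for the 10 members and 9 related lists (horizontal axis; 1 point per gene; triangles are bounds, with 1 array not well above background; black bars are medians). The fast fibre, Z disc, coupling and energy lists lie well to the right of 0 in both panels, with medians between 4.02 and 8.88, while heart markers centre near 0 on the left (0.01) and at -3.64 on the right.

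Regulators of muscle identity differed between the embryonic and adult arrays. Myf6 and Myog, the MyoD-family factors of differentiating muscle, were at 2.90 and 0.97 in esophagus and at -1.40 and -0.07 in E9.5 stomach. Pax3, which marks embryonic muscle progenitors and dorsal neural tube, was at 0.10 in E9.5 stomach and not well above background on any of the other 6 arrays. Tbx1, a regulator of branchial and esophageal muscle, was at 4.80 in esophagus, 2.25 in E9.5 stomach, 1.83 in lung and -2.40 in stomach. Of 15 regulators tested, 5 were higher in esophagus than in E9.5 stomach by 4-fold or more and 2 were lower by as much, where 17.3% of all genes were higher and 11.2% lower (median 0.16, which turned to -0.51 with median centring). Against day 42, 10 of 14 were 4-fold higher in esophagus (median 3.77) and none was lower, where 10.7% of all genes were higher and 8.55% lower.

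The members were next compared between arrays other than esophagus. Adult stomach was among the organs against which the members had been selected, so the comparisons with it are descriptions, and nothing is read from their counts beside the shares over all genes. Between E9.5 and adult stomach, 2 of 10 members were at least 4-fold higher in the embryo, against 11.5% of all genes, and 2 were 4-fold lower, against 18.1%. Tnnc2 was 32.5-fold higher in the embryo (5.02) and Mylpf 4.20-fold higher (2.07), while Tnni2 was 17.2-fold lower (-4.11) and Ckm at least 39.2-fold lower. Ttn differed by 1.63, Acta1 by -1.39, Tcap by -0.92, Tnnt3 by 0.89, Myh8 by -0.39 and Actn2 by -0.24; the last pair turned positive with median centring, which moved the median over all genes from -0.02 to 0.54 and the share of calls higher in the embryo from 38.8% to 57.4%. The members' median was -0.32, smaller in size than the standard deviation between probes of 0.64 for this comparison. Beside them, 8 of 15 myogenic regulators were 4-fold higher in the embryo (Pax3 at least 85.5-fold, Myog at least 75.7-fold) and 1 was lower, with a median of 2.70. The part of these regulators in the Tnnc2 and Mylpf levels was not tested.

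Between the day 42 culture and adult stomach, 4 of 10 members were at least 4-fold higher in the culture, where 7.39% of all genes were, and 2 were lower, where 10.3% were. A low level in adult stomach was part of how the members were selected, so these counts do not set the members apart from other genes. Myh8 was 47.5-fold higher, Ttn 18.1-fold, Actn2 14.3-fold and Tcap 10.7-fold. Acta1 was 11.3-fold and Ckm 4.74-fold lower in the culture. The other 4 members were within about 2-fold: Tnnt3 at 0.95, Tnnc2 at -0.30, Mylpf at -0.40 and Tnni2 at -1.03 (log2). Of the 5 members that heart does not use, Myh8 alone reached 4-fold, upwards. Of the 5 shared with heart, 3 did so upwards and 2, Acta1 and Ckm, downwards. By the second Myh8 probe, neither array was above background. Median centring moved the median over all genes from 0 to 0.43 and the share of calls higher in the culture from 41.8% to 61.6%; the 4 higher members stayed 4, and 1 of the 2 lower ones no longer passed 4-fold.

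Most heart markers were higher at day 42 than in adult stomach as well. At day 42, 10 of 13 were at least 4-fold higher than in adult stomach and none was 4-fold lower, with a median of 3.50, and the log2 of their summed level was 7.46 at day 42, 6.87 at day 46 and 5.39 in stomach. Myh6 was at 4.57 at day 42, Nppa at 4.75 and Tnnt2 at 5.59. Slow fibre genes, several of which heart shares, were higher for 7 of 10 (median 6.30), against 2 of 10 of the other fast fibre genes (median 0.30). Smooth muscle markers ran the other way, 9 of 10 being 4-fold lower at day 42 (median -3.67). How much of the members' level came from heart-type cells was not tested.

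The day 46 culture gave similar values against the same stomach array: 4 of 10 members were higher, against 6.86% of all genes, and 2 were lower, against 9.91%. Myh8 was 39.6-fold, Ttn 23.8-fold, Actn2 9.05-fold and Tcap 7.74-fold higher, and Acta1 was 4.89-fold and Ckm 4.81-fold lower. These 6 genes were the ones that passed 4-fold at day 42 too. As in that comparison, the second Myh8 probe was above background on neither array, so the Myh8 fold rests on its brighter probe.

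The members, like most genes, differed little between the cultures, and the counts below do not set them apart from other genes. Between day 46 and day 42, 0 of 10 members were at least 4-fold higher, against 1.04% of all genes, and 0 were at least 4-fold lower, against 0.764%; with 1 array a side no test stands behind these counts. At 2-fold, 1 member was higher, against 9% of all genes, and none was lower, against 6.47%. That gene was Acta1, which went from -1.48 to -0.27, 2.32-fold higher. With median centring its difference was 0.81, below 2-fold, and Actn2 reached -1.06. The next largest differences were 0.75 for Tnnc2 and -0.66 for Actn2, and the other 7 members differed by less than 0.51, the standard deviation between probes for this comparison. The 8 Ttn probes ran from -1.28 to 0.40 here, so the sign for Ttn is not settled. The members' median was -0.14.

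Slow fibre genes differed more between the cultures. Their median was -1.14, and 5 of 10 were at least 2-fold lower at day 46, of which Myl2, the ventricular and slow regulatory light chain, was 7.50-fold and Myl3 5.94-fold lower. Among heart markers 4 of 13 were at least 2-fold lower and 1 was higher (median -0.28), with Nppa going from 4.75 to 3.53 and Myl7 staying at 5.31 and 5.32. The direction of the slow fibre median was the same under median centring, quantile normalization, the authors' table and normexp correction. Median centring moved the median over all genes in this comparison from 0 to -0.39 and the share of 4-fold calls that were higher at day 46 from 57.6% to 25.6%, and quantile normalization moved that share to 33.3%.

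**Figure D5:**
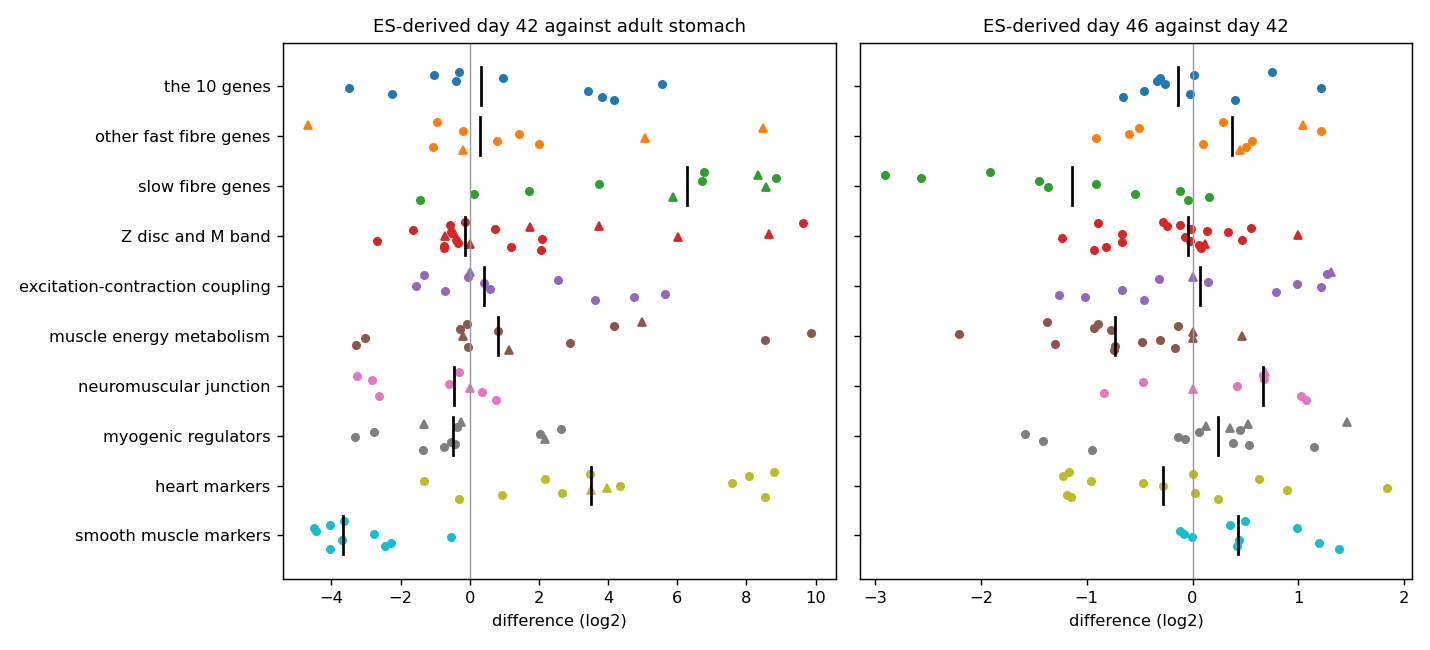
Log2 difference between the day 42 culture and adult stomach (left) and between the day 46 and day 42 cultures (right) for the 10 members and 9 related lists (horizontal axis; 1 point per gene; triangles are bounds; black bars are medians; the horizontal scales differ). On the left the members spread from -3.50 to 5.57, with slow fibre genes (median 6.30) and heart markers (3.50) mostly above 0; on the right the members lie between -0.66 and 1.21.

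Among themselves, the members were tied together mostly by the esophagus array. Over all 7 arrays the 45 pairs of members had a median Pearson r of 0.77, and over the 6 arrays without esophagus 0.10, with a range from -0.91 (Acta1 and Ttn) to 0.96. These are descriptions over 7 and 6 arrays of unlike tissues. Since the members were selected on their esophagus level, a high r over the 7 arrays follows from that choice. Acta1 lay furthest from the shared profile, with an r of 0.79 against the members' mean profile over the 7 arrays, and Tnnt3 lay closest, with 0.96. That mean profile includes each member itself.

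The 10 genes outside the set whose profile over the 7 arrays was most like the members' mean profile, by Pearson r among 3770 candidates, were Krt35, Ces1b, Coro6, Olfr646, Fsd2, Asb5, Mylk2, Olfr808, Cacng1 and Chrna9, with r from 0.985 to 0.997. Mylk2, the skeletal muscle myosin light chain kinase, was above background on all 7 arrays, at 4.43 in esophagus and between -4.15 and -2.78 elsewhere. Cacng1, a subunit of the skeletal muscle calcium channel, was at 3.28 in esophagus and above background on 1 of the other 6 arrays. The other 8 were above background on 1 to 3 of the other 6 arrays. Where a gene was not above background, the array's lowest signal above background took the place of its value. The profiles of these 8 genes and of Cacng1 outside esophagus are therefore set partly or mostly by that rule.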

How the data were processed

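Total RNA of 7 mouse samples was measured on 7 one-colour 4x44K arrays. Per the file headers, the deposited scanner files give each spot's processed intensity, background-corrected by the scanner software, with flags for outliers and for signal well above background. The submitters' processing notes name Agilent Feature Extraction 10.5, while the file headers give 10.5.1.1, and 10.7.3.1 on both culture arrays. The authors also deposited a log2 table scaled to the 75th percentile, whose direction and scale were checked against the scanner values (r of 0.999 or above on each array; column medians between -3.43 and -2.68). No column of another sample was present.

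Control spots and outlier spots were dropped. There were no saturated spots. The log2 intensities of a probe's spots were averaged, and the 75th percentile of the array was subtracted. A probe was above background where a share of at least 0.5 of its spots carried the flag. There were 41174 probes, and 24367 took a gene name from their accession, 57 from a symbol or synonym, through the RefSeq table of GRCm38.p6, which served for names and gene order only because the arrays' own coordinates are of another build, and 16750 stayed unnamed. The probe with the highest mean over arrays stood for a gene. In a difference, a gene below background on 1 side was set to that array's lowest signal above background, or to its own if higher, so that the fold is a bound, and a gene below background on both was left out. The standard deviation between probes comes from genes with at least 2 probes. The calculation was tested on simulated data. Protein and probe sequences were not used here.

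The members, the 17 lists including the set itself, the thresholds (4-fold, with 2-fold as alternative) and the naming rule were chosen with earlier results of these data known. Genes named are the 10 members, from each list up to 3 genes with the highest esophagus level (for slow fibre genes and heart markers also the day 42 level) and up to 3 that went against their list, and the 10 genes most like the members, those with a range of at least 4 (log2) being candidates and clone names skipped. Myf6, Myog, Pax3, Myh4, Actg2, Tnni3, Mybpc3, Tbx20, Tnnc1 and Myl2 were named after their values were seen. The alternatives tried were the authors' table, median centring of each array, quantile normalization, normexp background correction (limma 3.58.1, offset 50) on median signals, no filter on background, above background on both arrays, the mean over probes, and 2-fold. R 4.3.3, Python 3.11.15, pandas 2.3.3 and numpy 2.4.6 were used.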

Additional observations from a re-analysis of the deposited data

How the results depend on the processing

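All 10 members were highest in esophagus with median centring, quantile normalization, the authors' table, normexp correction and the mean over probes. Under each alternative run, 10 of 10 members were at least 4-fold higher in esophagus than on each other array (at least 2-fold for the 2-fold setting), except that 9 counted against E9.5 stomach where both arrays had to be above background, since Ckm was not above it there. The authors' table moved no summary value, and no called value changed sign. Of the summary values recomputed, 345 stayed within 1.5 times (counts) or within the standard deviation between probes (medians), and 50 did not. Beside these, of the differences of single members and the medians of 9 gene lists and of all genes, 1260 stayed within that standard deviation and 138 moved further, 61 of them with normexp correction. No paired analysis was possible because each group holds 1 array and the arrays share no replicate beyond that number.

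The members' median difference became 8.87 against stomach and 8.70 against intestine with normexp correction, 8.30 against E9.5 stomach with median centring and 9.02 against day 46 with the mean over probes. Members lower at day 42 than in adult stomach became 1 with median centring, quantile normalization and normexp correction, and those lower at day 46 became 1 with normexp correction. For E9.5 against adult stomach, members higher became 1 with normexp correction, and members lower became 1 where both arrays had to be above background. At 2-fold, 1 member was higher at day 46 than at day 42.

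Counts over all genes moved as follows. At 2-fold, genes higher and lower in esophagus were 2542 and 2474 against lung, 2083 and 2312 against stomach, 3235 and 3275 against intestine, 4168 and 4090 against E9.5 stomach, 3208 and 3387 against day 42, and 3225 and 3349 against day 46. At 2-fold they were 1390 higher and 999 lower at day 46 than at day 42, 2987 and 3355 for day 42 against stomach, 3049 and 3479 for day 46 against stomach, and 4119 and 4489 for E9.5 against adult stomach. With median centring, 3111 genes were lower in esophagus than in E9.5 stomach and 2115 lower than at day 42, 83 were higher and 241 lower at day 46 than at day 42, 1716 were higher at day 42 than in stomach, and 2880 higher in E9.5 than in adult stomach. With quantile normalization, 94 were higher and 188 lower at day 46 than at day 42. With normexp correction, 710 were lower in esophagus than in lung, 459 higher and 582 lower than in stomach, 788 higher than in intestine, and 742 lower than at day 46. The same correction gave 54 higher and 68 lower at day 46 than at day 42, 670 higher and 1000 lower at day 42 than in stomach, and 568 higher at day 46 than in stomach. With no filter on background, 500 were higher at day 46 than at day 42. The cause of these shifts was not tested.

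For single members, the mean over probes moved Myh8 for esophagus over day 42 to 8.25 and for day 42 over stomach to 2.94, and it turned Ttn at day 46 over day 42 from 0.40 to -0.24. Small differences between arrays other than esophagus are limited by signal over background: the lowest level above background lay between -7.13 and -5.18.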
